A study of Mus musculus with 20 samples.

Results

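The interstitial matrix and crosslinking genes are 42 genes chosen by name from the 55471 rows of the count table. They comprise 6 chains of fibrillar collagens, 9 chains of other collagens, 10 genes of elastic fibres and fibronectin, 5 proteoglycans, 8 matricellular genes and 4 genes of collagen crosslinking and folding. Gene names alone define the list, which was drawn up with earlier results of these data known. All 42 passed the filter on low counts in every comparison. After Adriamycin (ADR), 15 of them rose and 1 fell where TERT was knocked out (TERT KO/KO), where 3.83% of all genes tested rose and 1.43% fell. In TERT WT/WT kidneys 26 rose and 2 fell, where 15.2% of all genes rose and 12.0% fell. The count of 15 was 2 without a single library, TERT KO/KO ADR replicate 3, when the count over all genes went from 1001 to 303. No member was called different between the genotypes after ADR with all libraries used. In i-TERTci kidneys the members were on the median 1.43 log2 units above actin-rtTA+ kidneys, and 1 of the 3 i-TERTci mice lay close to the controls. None of the members passed edgeR's test, which called 1 of all 17745 genes, whereas DESeq2 called 33 members higher and 1934 of all genes in either direction.

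The interstitial matrix of the kidney is the meshwork between tubules, vessels and glomeruli, made mainly by fibroblasts and pericytes. Its collagen chains are folded by chaperones, secreted, trimmed and assembled into fibrils, which lysyl oxidases crosslink. Fibronectin, fibrillin microfibrils and proteoglycans organise these fibrils and hold growth factors such as latent TGF-β, and the matrix builds up when a kidney scars.

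RNA was sequenced from whole kidneys of 20 female mice in 6 groups, at an age of 2 months per the labels. The 3 i-TERTci mice carried 1 copy each of actin-rtTA and tetOp-TERTci on a mixed background, so that doxycycline switched on catalytically inactive TERT (TERTci) ubiquitously. They drank 2 mg/ml doxycycline for 15 days and were killed 8 days after it was withdrawn. The 4 actin-rtTA+ mice had the same treatment without the tetOp-TERTci transgene. In the ADR experiment 3 TERT KO/KO and 3 TERT WT/WT mice received 12 mg/kg of ADR, a podocyte toxin, into the tail vein, and 3 TERT KO/KO and 4 TERT WT/WT mice received saline. These mice were on a BALB/c background after 10 generations of backcrossing, the WT/WT mice were littermates, and kidneys were taken 18 days after injection. The knockout is constitutive, in all cells, and the mice studied were of its first generation. The doxycycline of the i-TERTci experiment and the injection of the ADR experiment were thus shared by their controls.

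The libraries held 39323498 to 48399322 counts. Replicate 2 of the TERT KO/KO ADR group summed to 362284 CPM (counts scaled to equal library totals) over 18 hepatocyte markers, against 155 to 706 CPM in the other 19 libraries, and to 114 CPM over 10 proximal tubule markers. It was left out of group values and of the main tests, so the TERT KO/KO ADR group has 2 mice. With it kept in the fit, 1 member was called higher in TERT KO/KO and 5 in TERT WT/WT mice. Over all genes that fit called 295 and 894, against 1001 and 5164 without it. Tert had 1070, 1086 and 230 counts in i-TERTci replicates 1, 2 and 3, against 87 to 164 in the actin-rtTA+ libraries. The 5 TERT KO/KO libraries used had 51 to 210 Tert counts, against 122 to 379 in the 7 TERT WT/WT libraries, and where on the gene these reads lie is not known from counts. The p-values measure the spread between separate mice, and whole-kidney RNA cannot tell fewer cells of a type from less RNA per cell.

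RefSeq start sites on build GRCm38.p6 were at hand for 26 of the 42 members. The windows of 250 bases before the start site are shown for 6 genes, 4 that rose strongly after ADR and the 2 that fell, to let the start regions of both directions be read side by side. Their positions are chr6:4505368-4505617 on the plus strand for Col1a2, chr1:45311288-45311537 on the plus strand for Col3a1, chr12:84876492-84876741 on the minus strand for Ltbp2, chr13:56609336-56609585 on the plus strand for Tgfbi, chr7:27337613-27337862 on the minus strand for Ltbp4 and chr12:101819120-101819369 on the minus strand for Fbln5. Ltbp4 has 3 start sites in the table and Fbln5 has 2, and the outermost of each is shown. Capitals mark matches, on either strand, to 6 motifs, which are the TATA box with the letters TATAAA, the CCAAT box with the letters in its name, the GC box with GGGCGG, the AP-1 motif with TGANTCA, the TEAD motif with GGAATG and a SMAD-type motif with CAGACA.
Col1a2: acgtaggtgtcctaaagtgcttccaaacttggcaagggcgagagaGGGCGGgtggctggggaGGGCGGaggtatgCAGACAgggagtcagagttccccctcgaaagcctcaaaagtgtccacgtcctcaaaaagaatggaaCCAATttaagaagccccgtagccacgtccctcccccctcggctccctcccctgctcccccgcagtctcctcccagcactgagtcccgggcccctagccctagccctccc
Col3a1: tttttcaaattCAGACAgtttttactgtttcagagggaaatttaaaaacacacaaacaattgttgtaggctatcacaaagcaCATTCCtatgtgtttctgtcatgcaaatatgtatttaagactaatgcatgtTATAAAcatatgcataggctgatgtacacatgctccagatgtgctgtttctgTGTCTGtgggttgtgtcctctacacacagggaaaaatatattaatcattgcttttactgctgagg
Ltbp2: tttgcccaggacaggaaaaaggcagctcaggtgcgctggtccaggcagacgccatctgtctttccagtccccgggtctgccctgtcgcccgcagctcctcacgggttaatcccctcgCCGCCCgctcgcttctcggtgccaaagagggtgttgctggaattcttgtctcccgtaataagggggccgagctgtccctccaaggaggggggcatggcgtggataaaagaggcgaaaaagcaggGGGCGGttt
Tgfbi: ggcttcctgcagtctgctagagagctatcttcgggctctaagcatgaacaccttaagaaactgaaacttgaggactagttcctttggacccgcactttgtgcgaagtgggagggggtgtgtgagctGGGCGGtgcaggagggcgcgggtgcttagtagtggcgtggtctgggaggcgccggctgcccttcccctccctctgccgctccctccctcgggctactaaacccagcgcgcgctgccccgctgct
Ltbp4: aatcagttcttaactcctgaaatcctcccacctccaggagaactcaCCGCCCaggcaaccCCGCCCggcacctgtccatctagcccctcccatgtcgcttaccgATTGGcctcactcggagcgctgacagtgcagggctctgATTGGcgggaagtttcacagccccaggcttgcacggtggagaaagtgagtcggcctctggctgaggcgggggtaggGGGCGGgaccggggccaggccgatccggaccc
Fbln5: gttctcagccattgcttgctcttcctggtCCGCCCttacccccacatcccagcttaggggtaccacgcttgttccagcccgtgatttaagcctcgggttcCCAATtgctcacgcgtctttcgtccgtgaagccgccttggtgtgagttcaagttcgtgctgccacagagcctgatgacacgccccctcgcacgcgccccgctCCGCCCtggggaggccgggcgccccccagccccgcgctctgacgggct

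The GC box was the most frequent of these motifs. It lay in 17 of the 26 windows (65.4%), against 33% of the windows of 27025 genes in the table. The SMAD-type motif lay in 8 of 26 (30.8%), against 17.1% of all windows. The CCAAT box lay in 8 (30.8%, against 34.5% of all), the TATA box in 3 (11.5%, against 13% of all), and the AP-1 and TEAD motifs in 1 each (3.85%, against 6.85% and 12.6% of all). Col3a1 had a TATA box 117 bases before the start site and SMAD-type motifs at 239 and 65 bases, and Col1a2 had 1 at 175 bases. Ltbp2 and Tgfbi, which rose, and Ltbp4 and Fbln5, which fell, had GC boxes and no SMAD-type motif. These letter matches are a description and were not tested.

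At rest the members spanned a wide range of levels per kilobase of exon. In saline TERT WT/WT kidneys the highest were Mgp, an inhibitor of calcification, at 62.6 ± 12.6 CPM per kilobase, Bgn at 57.9 ± 3.79 and Sparc at 53.9 ± 3.44 (SD, n = 4). The libraries of these 3 genes overlapped, and so did those of the next 2, Col18a1 at 43.2 ± 1.63 and Serpinh1 at 41.8 ± 1.27 CPM per kilobase. Fbln5 followed at 18.3 ± 2.87 and Ltbp4 at 13.7 ± 1.03 CPM per kilobase, below every library of Serpinh1. Col1a1, the main chain of scar collagen, stood at 6.41 ± 1.07 CPM per kilobase. The lowest were Mfap5 at 0.129 ± 0.0646 and Ltbp2 at 0.094 ± 0.0144 CPM per kilobase, again with overlapping libraries. In actin-rtTA+ kidneys Mgp, Sparc and Bgn were also highest, at 84.4 ± 18.5, 79.9 ± 26.5 and 71.8 ± 9.33 CPM per kilobase (SD, n = 4).

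Summed over all 42 members, TMM-normalized CPM (CPM scaled by edgeR's library factors) reached 2708 and 4244 in the TERT KO/KO ADR libraries, against 1964 to 2056 in TERT KO/KO saline libraries. The sums were 2523, 4231 and 4435 in TERT WT/WT ADR libraries, against 1930 to 2041 in TERT WT/WT saline libraries. In i-TERTci libraries they were 8954, 3143 and 7397, against 2014 to 2698 in actin-rtTA+ libraries. Every treated library lay above all of its controls, but replicate 1 of each ADR group and i-TERTci replicate 2 lay nearest to them. Above all control libraries stood 37, 24 and 37 of the 42 members in i-TERTci replicates 1, 2 and 3, against 36.1%, 19.8% and 30.6% of all genes in the same libraries. In TERT KO/KO ADR replicates 1 and 3 they were 27 and 35 members, against 33.0% and 37.1% of all genes, and in TERT WT/WT ADR replicates 1, 2 and 3 they were 27, 34 and 35 members, against 29.8%, 37.9% and 37.4%. The median distance of a member to its control mean was 0.38 log2 units in i-TERTci replicate 2, against 1.85 and 1.67 in the others.

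The same libraries stood apart on markers of other cell types. Summed over 14 macrophage and monocyte markers, i-TERTci replicates 1, 2 and 3 had 2168, 220 and 1023 CPM, against 163 to 226 in actin-rtTA+ libraries. TERT KO/KO ADR replicates 1 and 3 had 243 and 824 CPM (TERT KO/KO saline 186 to 217), and TERT WT/WT ADR replicates 1, 2 and 3 had 382, 1047 and 1056 CPM (TERT WT/WT saline 182 to 239). The 10 proximal tubule markers summed to 3986, 29505 and 19282 CPM in i-TERTci replicates 1, 2 and 3, against 27077 to 32580 in actin-rtTA+ libraries. Within each treated group the library with the lowest matrix sum also had the lowest macrophage sum, and i-TERTci replicate 2 lay within its controls on the macrophage and proximal tubule lists. It lay above them on others, with 1147 CPM over 10 podocyte markers, against 615 to 777 CPM in actin-rtTA+ libraries, and 36.5 CPM over 6 urothelium markers, against 18.5 to 28 CPM. The podocyte markers summed to 356 and 683 CPM in i-TERTci replicates 1 and 3. After ADR they summed to 399 to 539 CPM in TERT KO/KO libraries (saline 569 to 670) and 206 to 565 CPM in TERT WT/WT libraries (saline 679 to 739). Of the 10, 3 fell in TERT KO/KO and 8 in TERT WT/WT mice, where 1.43% and 12.0% of all genes fell. The 15 fibroblast, myofibroblast and pericyte markers summed to 744 to 1753 CPM in i-TERTci libraries (actin-rtTA+ 539 to 627), 933 to 1067 CPM in TERT KO/KO ADR libraries (saline 541 to 640) and 633 to 1184 CPM in TERT WT/WT ADR libraries (saline 582 to 659). Of these 15 markers, 2 rose and 1 fell with TERT knocked out, and 4 rose and 2 fell in the wild type, the 2 that fell being near the 12.0% of all genes called lower there. Of the 14 macrophage markers, ADR raised 4 with TERT knocked out and 12 in the wild type, where 3.83% and 15.2% of all genes rose. The share of all genes called thus also differed between the genotypes. TERT KO/KO ADR libraries had 8843 and 8333 CPM of the proximal tubule markers (TERT KO/KO saline 16175 to 23390), and TERT WT/WT ADR libraries had 15859, 5174 and 4098 CPM (TERT WT/WT saline 19573 to 23087). No marker of these lists was at 0 in a library used. Their part in the matrix results was not tested.

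**Figure D1:**
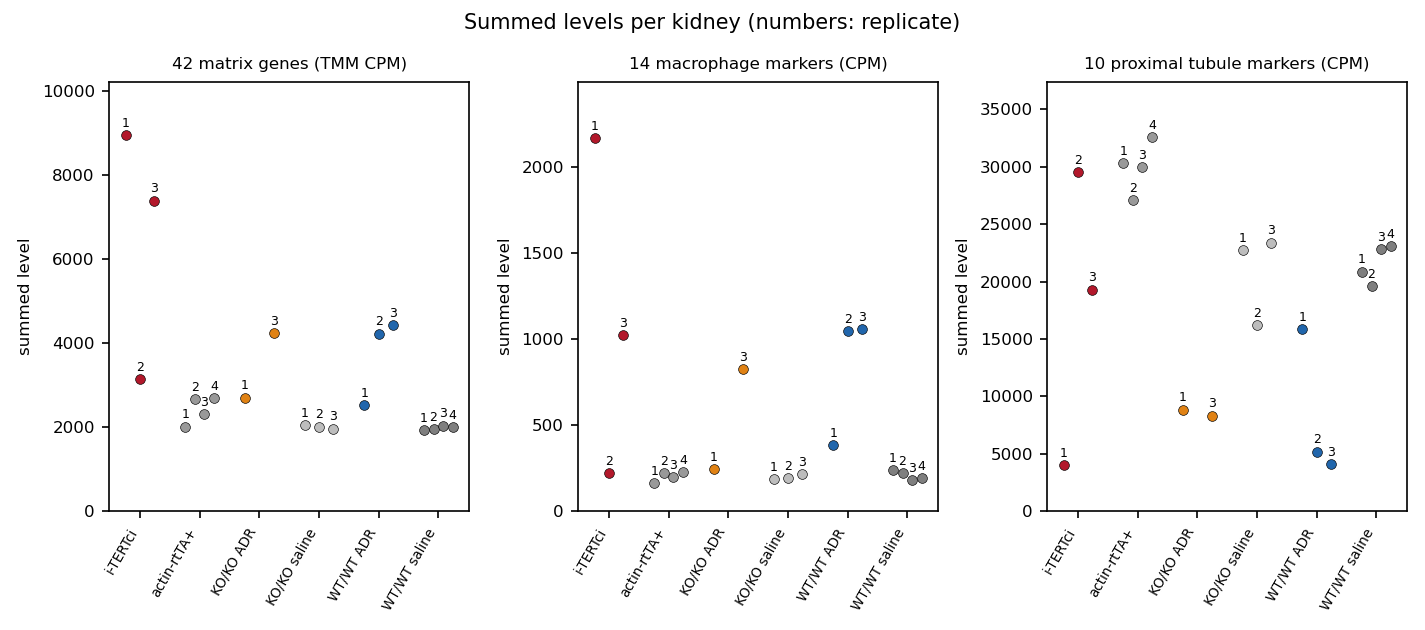
Summed CPM in each kidney of the 42 matrix genes (TMM-normalized), of 14 macrophage and monocyte markers and of 10 proximal tubule markers, by group, 1 point per mouse with its replicate number. The highest matrix sums, 8954 and 7397 CPM in i-TERTci replicates 1 and 3, stand beside macrophage sums of 2168 and 1023 CPM, and i-TERTci replicate 2 (3143 CPM) lies next to the actin-rtTA+ mice.

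After ADR, 26 of the 42 members rose and 2 fell in TERT WT/WT kidneys, at an adjusted p under 0.05 by edgeR's quasi-likelihood test over 19023 genes, and in TERT KO/KO kidneys 15 were called higher and 1 lower. The median log2 fold change of the members was 0.71 with TERT knocked out and 0.84 in the wild type, with 0.01 over all genes in each. Without TERT KO/KO ADR replicate 3 the median with TERT knocked out was 0.41. The ADR libraries lay above all saline libraries for 27 members in each genotype, against 21.3% of all genes in TERT KO/KO and 17.3% in TERT WT/WT mice. Of the members that rose, 14 did so in both genotypes, Fbln1 was called for TERT KO/KO mice alone and 12 were called for TERT WT/WT mice alone. Of these 12, DESeq2 called Col5a3, Mfap5 and Col8a1 higher in TERT KO/KO mice as well (adjusted p = 0.00755, 0.0104 and 0.0375). DESeq2 called 19 members higher in TERT KO/KO and 30 in TERT WT/WT mice, with 2196 and 5888 of all genes called in either direction. How many of all genes were called in both genotypes was not counted. The genotypes have their own saline controls but share 1 estimate of the spread.

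The count in TERT KO/KO mice depended on single libraries. It was 2 (Col3a1 and Tgfbi) without TERT KO/KO ADR replicate 3, and 4, 5 and 3 without TERT KO/KO saline replicates 1, 2 and 3. It was 23 without TERT WT/WT ADR replicate 1. The count over all genes moved with it, from 1001 to 303 without TERT KO/KO ADR replicate 3. It was 217, 213 and 177 without TERT KO/KO saline replicates 1, 2 and 3, and 3393 without TERT WT/WT ADR replicate 1. Col3a1 and Tgfbi were the members called in every one of these fits, and the 1 fall, of Ltbp4, was lost without any of the 5 TERT KO/KO libraries. In TERT WT/WT mice the count of members higher ranged over 19 to 31 when a library was left out, with Fbln5 and Ltbp4 called lower each time. The count over all genes ranged over 1708 to 7810 in these fits.

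In i-TERTci kidneys, 40 of 42 members had a positive log2 fold change against actin-rtTA+ kidneys, yet edgeR called 0 higher and 0 lower. Of all 17745 genes tested, 0.00564% (1 gene) were called higher and 0% lower. At an unadjusted p under 0.05, 34 members were higher and 0 lower, against 3972 of all 17745 genes in either direction. The smallest adjusted p among members was 0.0758. DESeq2 called 33 members higher, edgeR on 19 libraries in a single fit called 34, and edgeR without i-TERTci replicate 2 called 35. The median log2 fold change was 1.43, with 0.02 over all genes. The i-TERTci libraries lay above all actin-rtTA+ libraries for 22 members, against 9.01% of all genes. All 26 members that rose in TERT WT/WT mice after ADR were among the 34 of 42 at an unadjusted p under 0.05. This overlap was not counted over all genes, so it is not read as particular to the members.

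**Figure D2:**
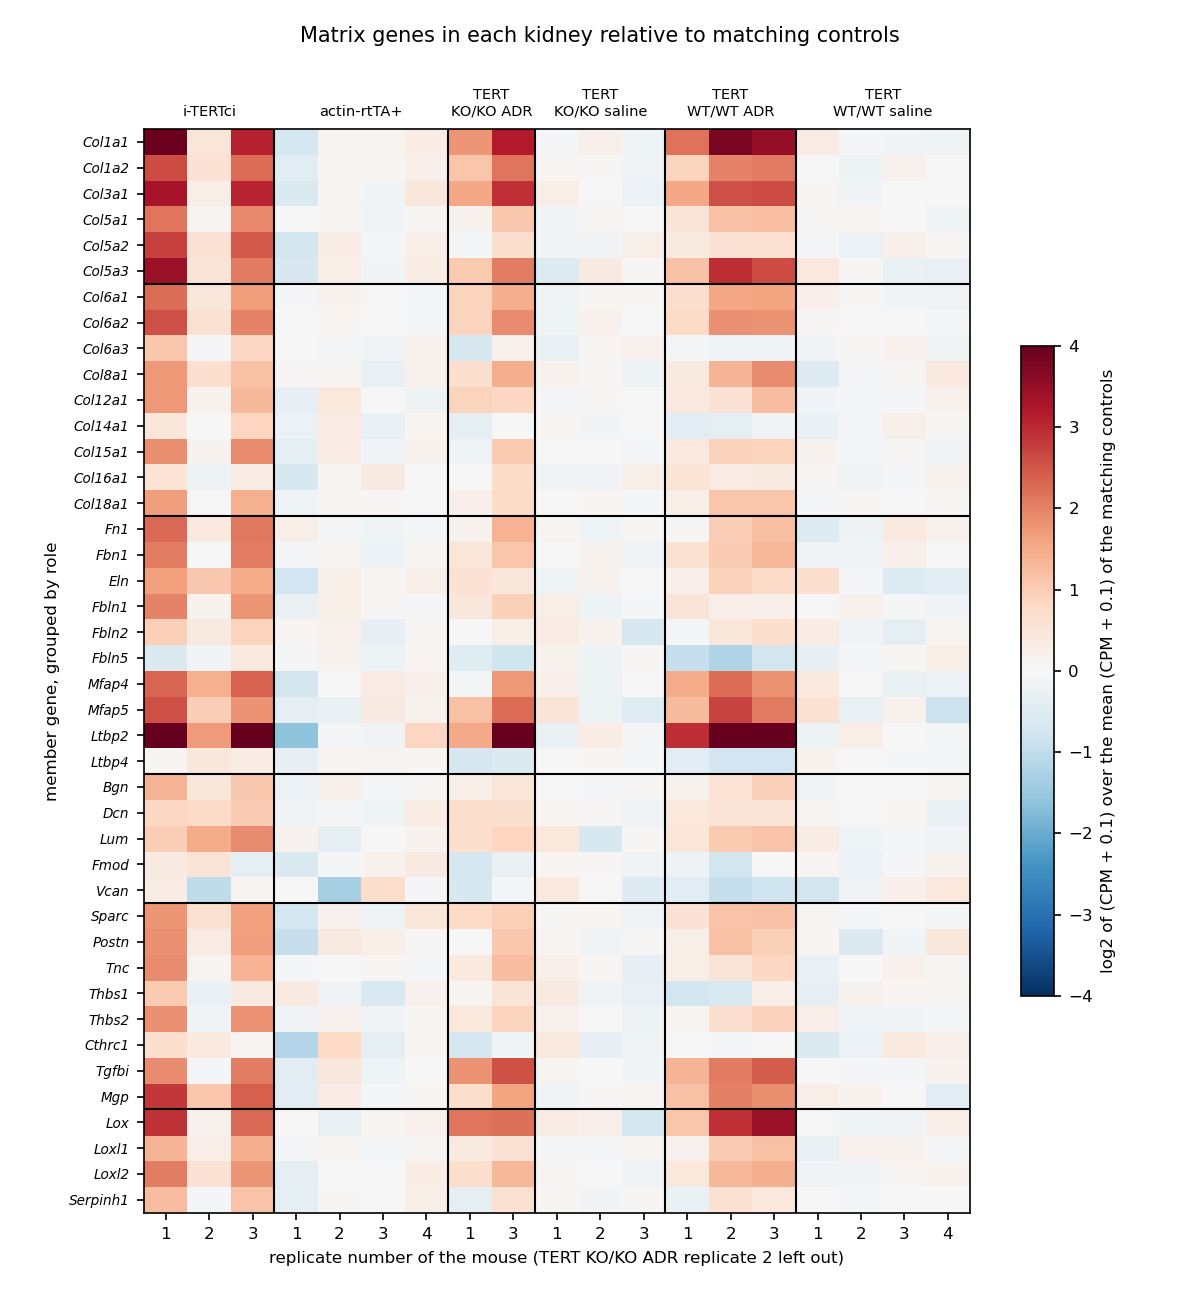
Each of the 42 members (rows, grouped by role) in each of 19 kidneys (columns, by group and replicate), coloured by the log2 ratio of CPM to the mean of the matching controls, with 0.1 CPM added and colours ending at 4 log2 units either way. Red columns of i-TERTci replicates 1 and 3 stand beside a pale replicate 2, and Fbln5 and Ltbp4 are blue in the ADR kidneys.

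After ADR 3 of the 6 fibrillar collagen chains rose with TERT knocked out and all 6 rose in the wild type, and their median log2 fold changes were 1.69 in TERT KO/KO and 2.03 in TERT WT/WT mice. Col1a1 (chromosome 11, 94936224 to 94953042) encodes the alpha-1 chain of type I collagen. It had 189 and 499 CPM in TERT KO/KO ADR libraries, against 53, 63.2 and 49 CPM in TERT KO/KO saline libraries. In TERT WT/WT mice it had 189, 574 and 477 CPM after ADR, against 52.4, 40.2, 38.6 and 37 CPM after saline. No ADR library overlapped a saline library, and replicate 1 was the lowest after ADR in each genotype. The log2 fold changes were 2.64 ± 0.43 (standard error, edgeR adjusted p = 0.00814) in TERT KO/KO and 3.30 ± 0.36 (adjusted p = 7.16e-04) in TERT WT/WT mice. In i-TERTci libraries Col1a1 had 1149, 106 and 636 CPM, against 46.6, 81.6, 80.8 and 92 CPM in actin-rtTA+ libraries. Replicate 2 was just above the highest control. The log2 fold change was 3.07 ± 0.63 (edgeR adjusted p = 0.0758), or 3.56 ± 0.31 (adjusted p = 1.49e-04) without that mouse.

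Col1a2, the other type I chain, had 153 and 313 CPM in TERT KO/KO ADR libraries, against 75.6, 73.4 and 64.2 CPM after saline, and 120, 257 and 275 CPM in TERT WT/WT ADR libraries, against 65, 56.3, 72.6 and 66.1 CPM after saline. It had 602, 148 and 464 CPM in i-TERTci libraries, against 73.1, 104, 103 and 114 CPM in actin-rtTA+ libraries. Again no treated library fell among its controls. It rose by 1.71 ± 0.33 log2 units in TERT KO/KO and 1.74 ± 0.27 in TERT WT/WT mice after ADR (edgeR adjusted p = 0.014 and 0.00188), and its log2 fold change in i-TERTci mice was 2.04 ± 0.41 (adjusted p = 0.0758). Col3a1, the chain of type III collagen that is laid down early in repair, had 97.9 and 256 CPM in TERT KO/KO ADR libraries, against 39.1, 33.1 and 28.3 CPM after saline. It had 89.4, 184 and 187 CPM in TERT WT/WT ADR libraries, against 32.3, 28.8, 31.4 and 30.5 CPM after saline. Both genotypes were separated from saline, by 2.40 ± 0.36 log2 units with TERT knocked out (edgeR adjusted p = 0.00601) and 2.32 ± 0.30 in the wild type (adjusted p = 9.99e-04). In i-TERTci libraries Col3a1 had 641, 75.5 and 538 CPM, against 42.9, 67.7, 59.9 and 88.5 CPM in actin-rtTA+ libraries, where replicate 2 lay within the controls.

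Type V collagen nucleates and limits fibrils. Its chain Col5a2 had 18.9 and 30.2 CPM in TERT KO/KO ADR libraries, against 17.8, 17.5 and 22.7 CPM after saline, and 23.5, 26.9 and 27.9 CPM in TERT WT/WT ADR libraries, against 17.4, 15.6, 20.8 and 18.9 CPM after saline. The groups overlapped with TERT knocked out and were apart in the wild type, where the rise was small (0.52 ± 0.16 log2 units, edgeR adjusted p = 0.033). In i-TERTci libraries Col5a2 had 49, 11.1 and 40.7 CPM, against 4.4, 9, 7.14 and 8.79 CPM in actin-rtTA+ libraries, a log2 fold change of 2.20 ± 0.46 (adjusted p = 0.0758). Col5a1 rose by 1.00 ± 0.21 and Col5a3 by 2.48 ± 0.39 log2 units in TERT WT/WT mice. With TERT knocked out the log2 fold changes were 0.68 ± 0.25 for Col5a1 and 1.66 ± 0.47 for Col5a3 (edgeR adjusted p = 0.112 and 0.0572).

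Of the 9 other collagen chains, ADR raised 3 with TERT knocked out and 6 in the wild type. Type VI collagen forms beaded microfibrils around cells. Its chain Col6a1 had 54.7 and 82 CPM in TERT KO/KO ADR libraries, against 27, 31.4 and 30.3 CPM after saline, and 43.2, 79.5 and 82.2 CPM in TERT WT/WT ADR libraries, against 31.1, 28, 25.4 and 24.6 CPM after saline. Col6a2, encoded near it on chromosome 10, had 45.4 and 90.5 CPM in TERT KO/KO ADR libraries, against 21.7, 27.2 and 24.2 CPM after saline, and 36.8, 75 and 73.7 CPM in TERT WT/WT ADR libraries, against 21.8, 21.4, 21.2 and 20.6 CPM after saline. Both genes separated all ADR from all saline libraries. Col6a1 rose by 1.21 ± 0.24 in TERT KO/KO and 1.32 ± 0.20 log2 units in TERT WT/WT mice (edgeR adjusted p = 0.0169 and 0.00168), and Col6a2 by 1.48 ± 0.30 and 1.54 ± 0.25 (adjusted p = 0.0169 and 0.00201). In i-TERTci libraries Col6a2 had 190, 48.5 and 125 CPM, against 31.3, 34, 31.4 and 30.2 CPM in actin-rtTA+ libraries, and Col6a1 had 190, 55.1 and 128 CPM, against 38.2, 44.3, 40.5 and 38.6 CPM. Here even replicate 2 was above the controls. Col6a3, the third chain, was not called after ADR. It had 24.4 and 43.3 CPM in TERT KO/KO ADR libraries, against 31.8 to 42.9 CPM after saline, and 28.7 to 30.7 CPM in TERT WT/WT ADR libraries, against 28.2 to 35.7 CPM after saline, with log2 fold changes of -0.18 ± 0.20 and -0.09 ± 0.17.

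Col8a1, a short chain that forms hexagonal networks around vessels, had 9.45 and 16.7 CPM in TERT KO/KO ADR libraries, against 6.56, 6.19 and 5.25 CPM after saline, and 7.46, 15 and 21.5 CPM in TERT WT/WT ADR libraries, against 4.02, 5.38, 5.97 and 7.58 CPM after saline. WT/WT replicate 1 overlapped the saline mice. The log2 fold change was 1.12 ± 0.38 with TERT knocked out (edgeR adjusted p = 0.0951), and the rise of 1.36 ± 0.32 in the wild type was called (adjusted p = 0.01). In i-TERTci libraries Col8a1 had 24, 11.3 and 16 CPM, against 7.37, 7.31, 5.73 and 8 CPM in actin-rtTA+ libraries. Col18a1, a basement membrane collagen that releases endostatin, had 321 and 471 CPM in TERT KO/KO ADR libraries, against 275, 292 and 269 CPM after saline, and 360, 656 and 656 CPM in TERT WT/WT ADR libraries, against 288, 311, 302 and 313 CPM after saline. It rose by 0.88 ± 0.20 log2 units in TERT WT/WT mice (adjusted p = 0.00865). Slc19a1 overlaps its locus on the other strand, and the strand setting of the counts is not given in the sources used here. Col12a1, a fibril-associated collagen, rose in both genotypes (0.88 ± 0.20 in TERT KO/KO and 0.79 ± 0.17 log2 units in TERT WT/WT mice), and Col15a1, of the endostatin family, rose in TERT WT/WT mice (0.76 ± 0.22). Col14a1 and Col16a1, which also sit on fibril surfaces, had log2 fold changes of -0.15 ± 0.16 and 0.40 ± 0.21 in TERT KO/KO and -0.29 ± 0.14 and 0.42 ± 0.17 in TERT WT/WT mice, and were not called.

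**Figure D3:**
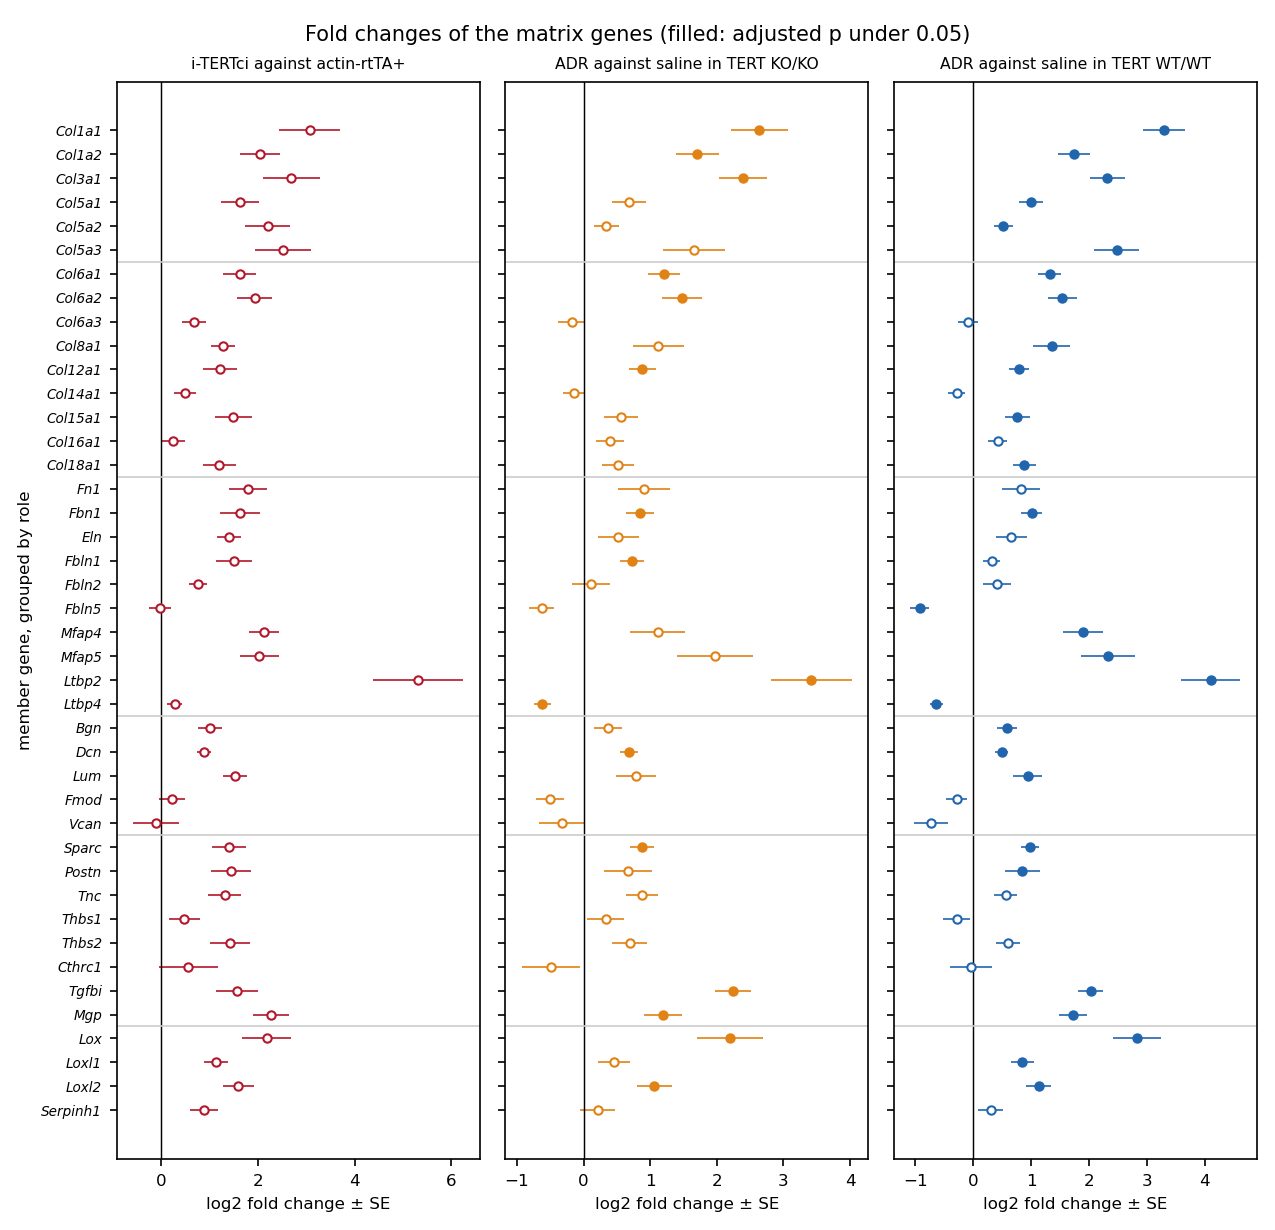
Log2 fold changes with standard errors of the 42 members (grouped by role) in i-TERTci against actin-rtTA+ mice and after ADR against saline with the TERT KO/KO and with the TERT WT/WT genotype, filled where the edgeR adjusted p was under 0.05. Ltbp2 is the highest in each panel (5.31, 3.42 and 4.11), Fbln5 and Ltbp4 lie left of 0 after ADR, and no symbol is filled for i-TERTci.

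After ADR the elastic fibre genes held both the highest and the lowest fold changes of all members in each genotype. Ltbp2 (chromosome 12, 84783212 to 84876532, minus strand) encodes a fibrillin-binding protein that, unlike its relatives, does not bind latent TGF-β. It had 2.6 and 15.3 CPM in TERT KO/KO ADR libraries, against 0.677, 1.05 and 0.802 CPM after saline, and 6.56, 15.5 and 17.8 CPM in TERT WT/WT ADR libraries, against 0.658, 0.935, 0.752 and 0.732 CPM after saline. In i-TERTci libraries it had 37.2, 1.73 and 17.3 CPM, against 0.0862, 0.433, 0.414 and 0.937 CPM in actin-rtTA+ libraries. All 3 comparisons separated the groups, with TERT KO/KO ADR replicate 1 and i-TERTci replicate 2 nearest the controls. The log2 fold changes were 3.42 ± 0.61 in TERT KO/KO (edgeR adjusted p = 0.012), 4.11 ± 0.51 in TERT WT/WT (adjusted p = 9.60e-04) and 5.31 ± 0.94 in i-TERTci mice (adjusted p = 0.0758).

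Fbln5 and Ltbp4 went the other way after ADR. Fbln5 encodes a fibulin needed to assemble elastin on microfibrils. It had 78.1 and 62.6 CPM in TERT KO/KO ADR libraries, against 120, 95.9 and 112 CPM after saline, and 67.3, 54.7 and 76.1 CPM in TERT WT/WT ADR libraries, against 101, 123, 134 and 148 CPM after saline. Its log2 fold change was -0.63 ± 0.19 with TERT knocked out (edgeR adjusted p = 0.0691), and it fell by 0.93 ± 0.16 in the wild type (adjusted p = 0.00249). DESeq2 also called Fbln5 lower with TERT knocked out (adjusted p = 0.0211). Ltbp4, which binds latent TGF-β and helps build elastic fibres, had 56.5 and 60.4 CPM in TERT KO/KO ADR libraries, against 88.5, 95.8 and 85.7 CPM after saline, and 66.2, 52 and 52.1 CPM in TERT WT/WT ADR libraries, against 98, 88.5, 84.3 and 83.5 CPM after saline. It fell by 0.62 ± 0.13 and 0.64 ± 0.11 log2 units (adjusted p = 0.0232 in TERT KO/KO and 0.00277 in wild-type mice). For both genes all ADR libraries lay below all saline libraries of their genotype. In i-TERTci libraries the groups overlapped, with Fbln5 at 117, 162 and 230 CPM, against 166, 193, 151 and 185 CPM in actin-rtTA+ libraries, and Ltbp4 at 111, 148 and 133 CPM, against 86.1, 115, 116 and 115 CPM. Of 9 endothelial markers, 6 also fell in TERT WT/WT mice after ADR, where 12.0% of all genes fell. Their sums there were 673 to 988 CPM after ADR and 997 to 1069 CPM after saline. In TERT KO/KO mice, where 1.43% of all genes fell, 0 of the 9 were called, with sums of 762 to 1027 CPM after ADR and 997 to 1051 CPM after saline. The part of these markers in the falls of Fbln5 and Ltbp4 was not tested.

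Mfap4, which binds elastic fibres and collagen, had 3.55 and 12.5 CPM in TERT KO/KO ADR libraries, against 4.27, 3.21 and 3.62 CPM after saline, and 8.47, 14.3 and 10.5 CPM in TERT WT/WT ADR libraries, against 3.97, 3.02, 2.39 and 2.51 CPM after saline. It had 25.3, 13.5 and 25.7 CPM in i-TERTci libraries, against 2.91, 4.84, 6.26 and 5.71 CPM in actin-rtTA+ libraries. The i-TERTci mice stood clear of the controls, replicate 2 included, and TERT KO/KO ADR replicate 1 lay among its saline mice. The log2 fold changes were 1.11 ± 0.41 in TERT KO/KO (edgeR adjusted p = 0.121), 1.90 ± 0.35 in TERT WT/WT (adjusted p = 0.0035) and 2.13 ± 0.31 in i-TERTci mice (adjusted p = 0.0758). Mapk7, whose total count exceeds that of Mfap4 (213%), overlaps it on the other strand. Eln, the gene of elastin itself, had 57.7, 39 and 51.6 CPM in i-TERTci libraries, against 11, 22.1, 19.3 and 21.9 CPM in actin-rtTA+ libraries, which did not overlap (1.41 ± 0.25, adjusted p = 0.0758). After ADR it had 30.9 and 28.2 CPM in TERT KO/KO libraries, against 18.2, 22.5 and 21 CPM after saline, and 17.7, 28.9 and 25.9 CPM in TERT WT/WT libraries, against 24.6, 14.5, 10.5 and 11.4 CPM after saline. Neither change was called by edgeR, and DESeq2 called the rise in TERT WT/WT mice (adjusted p = 0.0487).

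Fbln1, a fibulin of many basement membranes, had 21.3 and 30.1 CPM in TERT KO/KO ADR libraries, against 18.1, 13.4 and 15.1 CPM after saline, and 24.7, 19.9 and 19.9 CPM in TERT WT/WT ADR libraries, against 17.2, 19.4, 16.2 and 16.1 CPM after saline. It rose by 0.73 ± 0.18 log2 units in TERT KO/KO mice (edgeR adjusted p = 0.0341), and its value in TERT WT/WT mice was 0.32 ± 0.15 (adjusted p = 0.124). Fbn1, the fibrillin of adult microfibrils, rose by 0.84 ± 0.21 in TERT KO/KO and 1.01 ± 0.18 log2 units in TERT WT/WT mice. The TERT KO/KO calls of Fbln1 and Fbn1 were kept in 5 and 4 of 12 fits that left out a library. Mfap5, a microfibril glycoprotein, rose by 2.33 ± 0.47 in TERT WT/WT mice and was low at rest (0.209 to 0.749 CPM after saline). Fn1, fibronectin, on which collagen is assembled, had 95.2 and 230 CPM in TERT KO/KO ADR libraries, against 77.3 to 94.3 CPM after saline, and 97.6, 186 and 220 CPM in TERT WT/WT ADR libraries, against 65.5 to 125 CPM after saline. Its log2 fold changes, 0.90 ± 0.39 and 0.83 ± 0.33, were not called by edgeR (adjusted p = 0.176 in TERT KO/KO and 0.0769 in wild-type mice), and DESeq2 called the wild-type rise (adjusted p = 0.0381). In i-TERTci libraries Fn1 had 547, 148 and 487 CPM, against 100 to 133 CPM in actin-rtTA+ libraries. Fbln2, another fibulin, had log2 fold changes of 0.11 ± 0.29 in TERT KO/KO and 0.41 ± 0.25 in TERT WT/WT mice.

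Among the 5 proteoglycans, 1 rose after ADR with TERT knocked out and 3 rose in the wild type. Dcn (decorin) binds collagen fibrils and TGF-β. It had 100 and 94 CPM in TERT KO/KO ADR libraries, against 63.9, 63.4 and 55 CPM after saline, and 71.5, 77.1 and 76.3 CPM in TERT WT/WT ADR libraries, against 58.3, 54.3, 57.1 and 44.4 CPM after saline. In i-TERTci libraries it had 101, 97.7 and 117 CPM, against 52.1, 55.9, 50.9 and 70.3 CPM in actin-rtTA+ libraries. The treated mice were close to each other and above all their controls, i-TERTci replicate 2 included. The log2 fold changes were 0.68 ± 0.13 in TERT KO/KO (edgeR adjusted p = 0.0146), 0.49 ± 0.11 in TERT WT/WT (adjusted p = 0.00828) and 0.88 ± 0.15 in i-TERTci mice (adjusted p = 0.0758). Lum (lumican), which spaces fibrils, had 5.42 and 6.2 CPM in TERT KO/KO ADR libraries, against 4.53, 2.1 and 3.46 CPM after saline, and 5.15, 7.77 and 8.27 CPM in TERT WT/WT ADR libraries, against 4.56, 3.23, 3.52 and 3.45 CPM after saline. Its log2 fold change was 0.79 ± 0.30 with TERT knocked out (edgeR adjusted p = 0.125), and it rose by 0.94 ± 0.25 in the wild type (adjusted p = 0.0157). In i-TERTci libraries Lum had 7.09, 10 and 13.3 CPM, against 3.86, 2.68, 3.57 and 3.92 CPM in actin-rtTA+ libraries. Here replicate 2 was not the lowest. Bgn (biglycan) rose by 0.58 ± 0.17 in TERT WT/WT mice. Fmod (fibromodulin), which guides collagen crosslinking, had log2 fold changes of -0.50 ± 0.21 in TERT KO/KO and -0.29 ± 0.18 in TERT WT/WT mice and was not called. Vcan (versican), a large hyaluronan-binding proteoglycan, had -0.33 ± 0.34 in TERT KO/KO and -0.73 ± 0.29 in TERT WT/WT mice and was not called by edgeR, while DESeq2 called it lower in TERT WT/WT mice (adjusted p = 0.0471).

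**Figure D4:**
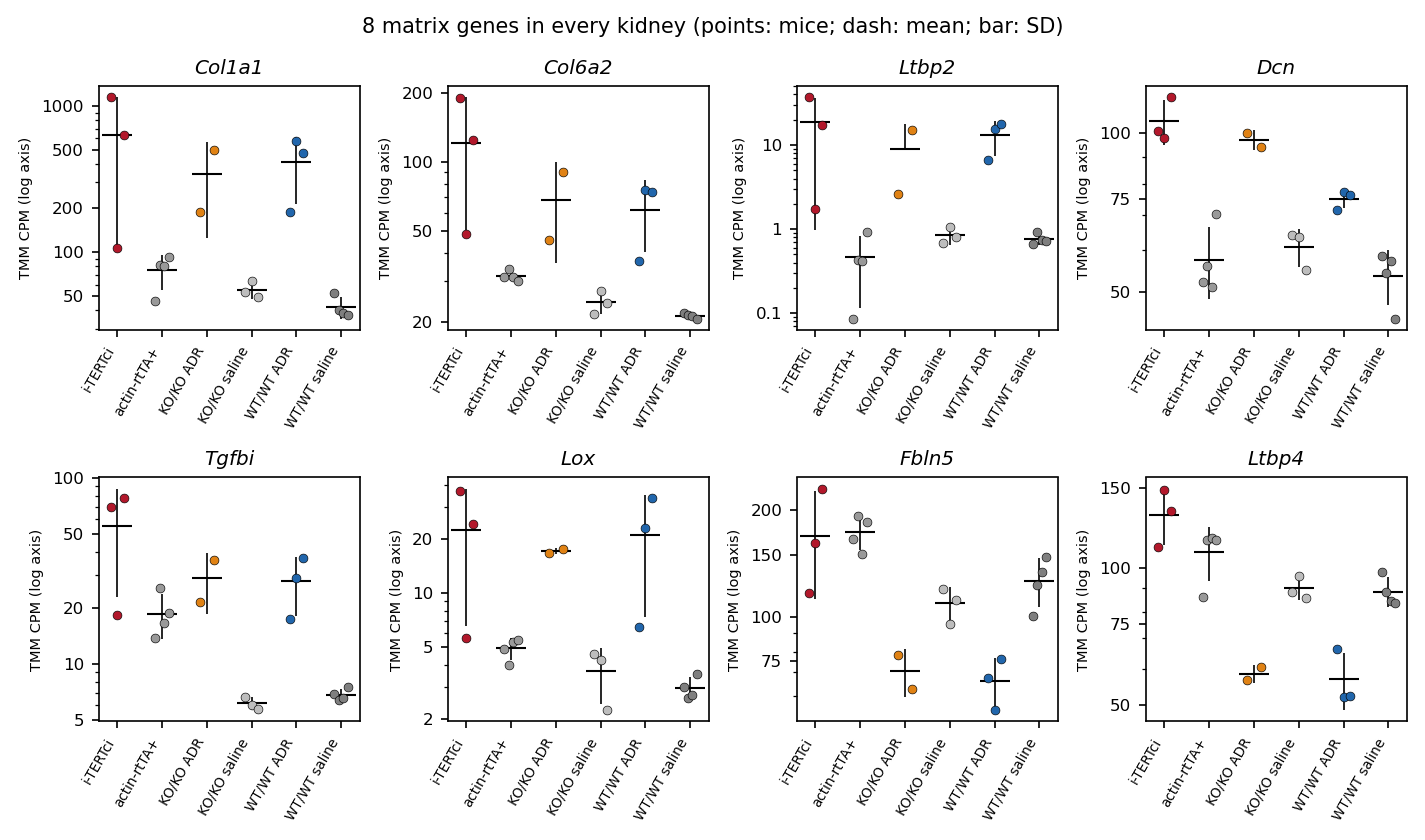
TMM-normalized CPM (log axis) of 8 members in each kidney by group, with 1 point per mouse, a dash for the mean and a bar for the SD, whose lower arm is left out where the SD exceeds the mean. Col1a1, Col6a2, Ltbp2, Dcn, Tgfbi and Lox lie above saline in all ADR mice, Fbln5 and Ltbp4 below, and i-TERTci replicate 2 is the lowest of its group for Col1a1 (106 CPM), Col6a2, Ltbp2, Dcn, Tgfbi and Lox.

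Of the 8 matricellular genes, which modulate cell contact with the matrix more than they build it, ADR raised 3 with TERT knocked out and 4 in the wild type. Tgfbi, a TGF-β-induced adhesion protein, had the smallest p of all members in both genotypes. It had 21.6 and 36.3 CPM in TERT KO/KO ADR libraries, against 6.67, 6.04 and 5.69 CPM after saline, and 17.5, 28.9 and 37.1 CPM in TERT WT/WT ADR libraries, against 6.88, 6.42, 6.53 and 7.47 CPM after saline. The lowest ADR mouse of each genotype was far above the highest saline mouse. It rose by 2.24 ± 0.27 log2 units in TERT KO/KO (edgeR adjusted p = 0.00274) and 2.03 ± 0.22 in TERT WT/WT mice (adjusted p = 7.12e-04). In i-TERTci libraries Tgfbi had 69.6, 18.2 and 77.9 CPM, against 13.7, 25.7, 16.5 and 18.7 CPM in actin-rtTA+ libraries, with replicate 2 within the controls. Its log2 fold change there was 1.57 ± 0.44 (adjusted p = 0.099). Mgp had 149 and 273 CPM in TERT KO/KO ADR libraries, against 83.7, 95.4 and 97.9 CPM after saline, and 166, 299 and 270 CPM in TERT WT/WT ADR libraries, against 88, 82.1, 73.2 and 53.8 CPM after saline. In i-TERTci libraries it had 714, 210 and 522 CPM, against 73.3, 126, 95.8 and 105 CPM in actin-rtTA+ libraries. No treated mouse overlapped a control, and the log2 fold changes were 1.19 ± 0.29 in TERT KO/KO (adjusted p = 0.0333), 1.72 ± 0.24 in TERT WT/WT (adjusted p = 0.0013) and 2.27 ± 0.38 in i-TERTci mice (adjusted p = 0.0758).

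Sparc, a collagen-binding glycoprotein, had 421 and 471 CPM in TERT KO/KO ADR libraries, against 249, 257 and 219 CPM after saline, and 302, 453 and 455 CPM in TERT WT/WT ADR libraries, against 222, 199, 203 and 192 CPM after saline. It rose by 0.88 ± 0.18 and 0.98 ± 0.15 log2 units (edgeR adjusted p = 0.018 in TERT KO/KO and 0.0017 in wild-type mice). In i-TERTci libraries Sparc had 1017, 457 and 943 CPM, against 184, 337, 268 and 420 CPM in actin-rtTA+ libraries, so that replicate 2 was just above the highest control. Thbs1, an activator of latent TGF-β, did not follow the others. It had 52.1 and 69.4 CPM in TERT KO/KO ADR libraries, against 61.7, 44.2 and 38.9 CPM after saline, and 44.3, 48.9 and 88.5 CPM in TERT WT/WT ADR libraries, against 58.6, 82.3, 78.1 and 77.5 CPM after saline. All groups overlapped, with log2 fold changes of 0.33 ± 0.28 in TERT KO/KO and -0.29 ± 0.24 in TERT WT/WT mice. Postn (periostin), which helps to activate lysyl oxidase, was at the edge of the threshold in TERT WT/WT mice (0.85 ± 0.30, edgeR adjusted p = 0.0499), and its call was kept in 4 of 12 fits that left out a library. The calls of Bgn, Col15a1 and Col5a2 in TERT WT/WT mice were each kept in 7 of these 12 fits. Tnc (tenascin-C) and Thbs2, both of healing tissue, had log2 fold changes of 0.88 ± 0.24 and 0.69 ± 0.26 in TERT KO/KO and 0.56 ± 0.20 and 0.60 ± 0.21 in TERT WT/WT mice and were not called by edgeR. DESeq2 called Tnc higher in both genotypes (adjusted p = 0.015 in TERT KO/KO and 0.0401 in wild-type mice) and Thbs2 in the wild type (adjusted p = 0.0297). Cthrc1, a secreted protein of activated fibroblasts, stayed under 1 CPM in all 19 kidneys (at most 0.723 CPM).

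Collagen crosslinking was represented by Lox, Loxl1 and Loxl2, oxidases of lysine in collagen and elastin, and folding by Serpinh1, the collagen chaperone of the endoplasmic reticulum. After ADR, 2 of the 3 oxidases rose with TERT knocked out and all 3 rose in the wild type. Lox (chromosome 18, minus strand) had 16.7 and 17.6 CPM in TERT KO/KO ADR libraries, against 4.6, 4.28 and 2.24 CPM after saline, and 6.51, 23.1 and 33.8 CPM in TERT WT/WT ADR libraries, against 3, 2.61, 2.72 and 3.58 CPM after saline. The TERT WT/WT mice spread widely but stayed above saline. Lox rose by 2.20 ± 0.50 log2 units in TERT KO/KO (edgeR adjusted p = 0.0283) and 2.83 ± 0.42 in TERT WT/WT mice (adjusted p = 0.0017). In i-TERTci libraries Lox had 37, 5.64 and 24.3 CPM, against 4.89, 4, 5.36 and 5.52 CPM in actin-rtTA+ libraries, a log2 fold change of 2.18 ± 0.50 (adjusted p = 0.0776). Loxl2 had 25.3 and 39.2 CPM in TERT KO/KO ADR libraries, against 16.5, 15.7 and 14 CPM after saline, and 19.7, 35.7 and 40.4 CPM in TERT WT/WT ADR libraries, against 13.3, 13.4, 15.6 and 16 CPM after saline. It rose in both genotypes, by 1.06 ± 0.26 and 1.13 ± 0.22 log2 units (adjusted p = 0.034 in TERT KO/KO and 0.00396 in wild-type mice). In i-TERTci libraries it had 61.8, 22.1 and 50.8 CPM, against 11.6, 14.8, 15.1 and 18.2 CPM in actin-rtTA+ libraries, with no overlap.

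Loxl1, the oxidase of elastin, had 27.8 and 32.6 CPM in TERT KO/KO ADR libraries, against 21.1, 20.9 and 23.6 CPM after saline, and 26.2, 47 and 51.6 CPM in TERT WT/WT ADR libraries, against 18.6, 26.1, 25.3 and 22.1 CPM after saline. WT/WT replicate 1 was barely above its highest saline mouse. The log2 fold changes were 0.46 ± 0.24 in TERT KO/KO (edgeR adjusted p = 0.242) and 0.85 ± 0.20 in TERT WT/WT mice (adjusted p = 0.00925). In i-TERTci libraries Loxl1 had 71.1, 33.3 and 75.4 CPM, against 26, 29.2, 26 and 28.5 CPM in actin-rtTA+ libraries. Serpinh1 was not called by edgeR, with log2 fold changes of 0.21 ± 0.26 in TERT KO/KO and 0.30 ± 0.22 in TERT WT/WT mice. In i-TERTci libraries it had 229, 94.9 and 216 CPM, against 76.2 to 114 CPM in actin-rtTA+ libraries.

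Whether the ADR response of the members differed with TERT was tested directly. The ADR effect in TERT KO/KO minus that in TERT WT/WT mice was called by edgeR for 0 members in either direction. DESeq2 also called 0, while it called 138 of all genes. At an unadjusted p below 0.05 by edgeR there were 0 members, against 2288 of all 19023 genes. By edgeR's adjusted p, 0% of all genes were called higher and 0% lower. The median difference was -0.13 log2 units (all genes -0.01), and the 95% interval held 0 for all 42 members. Single libraries turned the sign and moved the size of that median, which was 0.11 without TERT KO/KO ADR replicate 1, -0.51 without TERT KO/KO ADR replicate 3, and -0.32, -0.04 and -0.03 without TERT WT/WT ADR replicates 1, 2 and 3. Without TERT WT/WT ADR replicate 1, 7 members had an unadjusted p under 0.05 and 0 were called, while 325 of all genes were called. The count over all genes at the unadjusted threshold was not made for that fit. For 22 members the whole interval lay within 1 log2 unit of 0, and for the other 20 the interval reached further, down to -2.44 (Ltbp2, estimate -0.69). The smallest p were those of Fbln1 (0.41, 95% interval -0.09 to 0.91), Thbs1 (0.62, -0.18 to 1.43) and Mfap4 (-0.78, -1.95 to 0.39), with adjusted p = 0.47, 0.49 and 0.546.

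The direct comparison of TERT KO/KO with TERT WT/WT kidneys after ADR, which shares its libraries with the tests above, also gave 0 calls with edgeR and 0 with DESeq2. At an unadjusted p under 0.05 by edgeR there was 1 member, against 1458 of all 19023 genes. The number of such members was 4 when the fit lacked TERT KO/KO ADR replicate 1, 11 when it lacked TERT KO/KO ADR replicate 3 and 5 when it lacked TERT WT/WT ADR replicate 1. Over all genes 0.0473% were called higher and 0.0263% lower. The 1 member with all libraries was Dcn, at 100 and 94 CPM in TERT KO/KO ADR libraries, against 71.5, 77.1 and 76.3 CPM in TERT WT/WT ADR libraries, which did not overlap (log2 difference 0.37 ± 0.13, edgeR adjusted p = 0.5). Col18a1 (-0.49 ± 0.24) and Loxl1 (-0.46 ± 0.23) came next. Both were called lower when TERT WT/WT ADR replicate 1 was left out, a fit that called 782 of all genes, against 14 in the main fit. After saline 0 members were called by edgeR and 0 by DESeq2, against 0% of all genes higher and 0.00526% lower by edgeR. There 1 member (Thbs1, -0.62 ± 0.24) had an unadjusted p under 0.05, against 1672 of all 19023 genes.

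**Figure D5:**
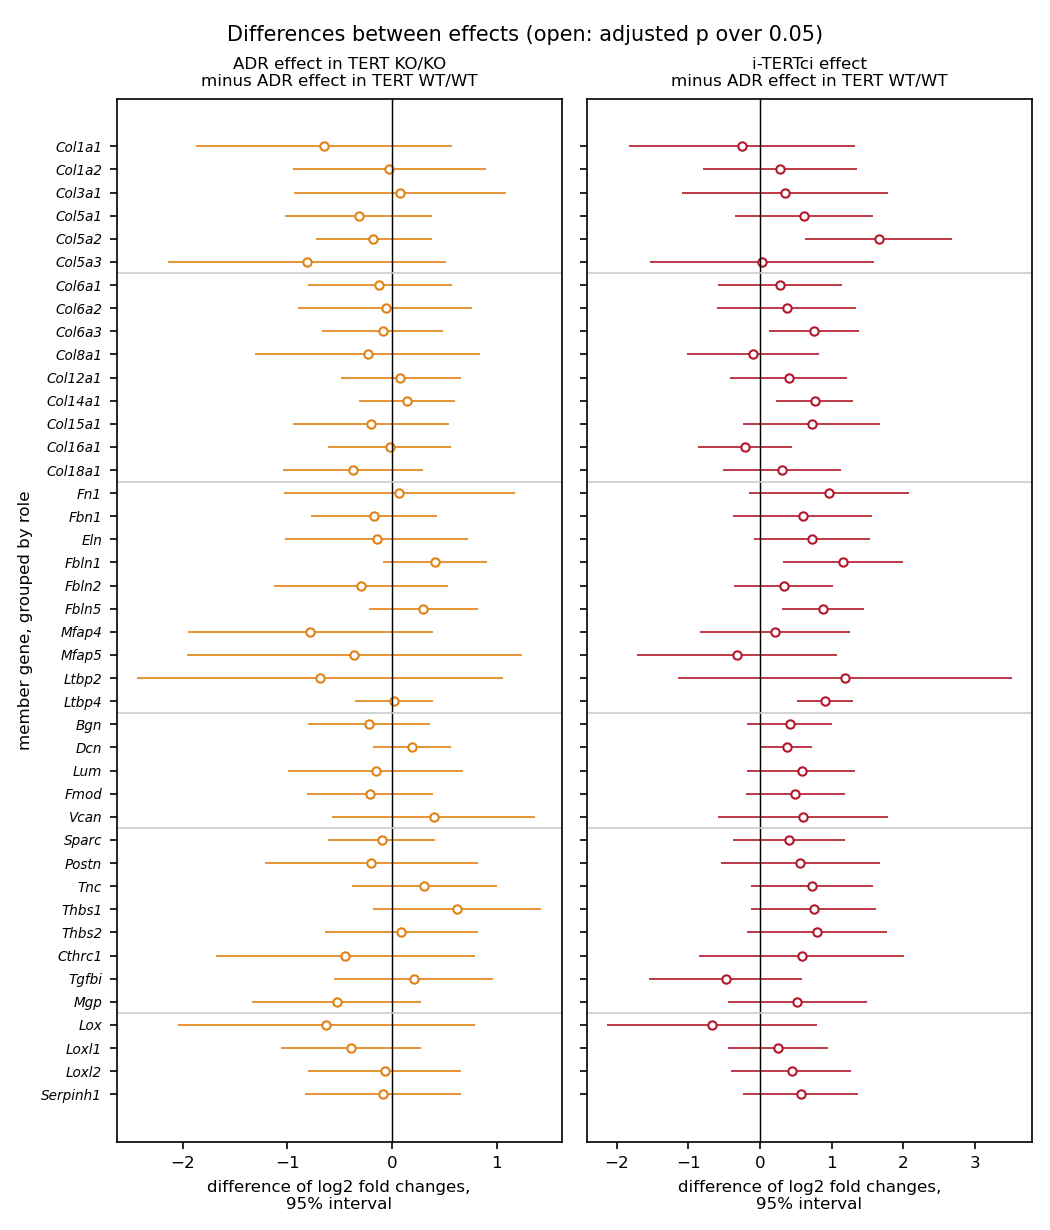
Differences between log2 fold changes of the 42 members (grouped by role) with 95% intervals, for the ADR effect (TERT KO/KO minus TERT WT/WT) and for the i-TERTci effect minus the wild-type ADR effect. Every interval of the left panel holds 0, and 7 of the right panel lie above 0, Ltbp4 (0.90) and Col5a2 (1.66) among them.

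The i-TERTci effect was also set against that of ADR in the wild type, in a fit of 19 libraries from the 2 experiments, which differ in strain, treatment and time. Again 0 members were called by edgeR, and DESeq2 called 1 (Ltbp4), among 60 of all genes. At an unadjusted p under 0.05 by edgeR, 7 members were higher and 0 lower, against 1417 of all 19783 genes in either direction. By edgeR's adjusted p, 0.00505% of all genes were called higher and 0% lower. The median difference was 0.51 log2 units, with 0.03 over all genes, and it was 0.26 without i-TERTci replicate 1 and 0.77 without i-TERTci replicate 2. Without replicate 2, 25 members had an unadjusted p under 0.05, a count that was not made over all genes for that fit. Ltbp4 had the smallest p (0.90 ± 0.19, edgeR adjusted p = 0.186), followed by Col5a2 (1.66 ± 0.49, adjusted p = 0.434) and Fbln5 (0.88 ± 0.27, adjusted p = 0.464). Without i-TERTci replicate 2, edgeR called Col5a2 and Fbln1 higher, among 35 of all genes called.

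The other genes of the matrix are read against the shares of all genes called after ADR, 3.83% higher and 1.43% lower in TERT KO/KO and 15.2% higher and 12.0% lower in TERT WT/WT mice. Of 26 genes tested for collagen processing and secretion, 3 rose and 1 fell after ADR with TERT knocked out, and 5 rose and 5 fell in the wild type, with median log2 fold changes of 0.11 in TERT KO/KO and 0.16 in TERT WT/WT mice. Adamts2, which removes the amino propeptide of procollagen, rose in both (1.26 ± 0.24 in TERT KO/KO and 1.20 ± 0.20 log2 units in TERT WT/WT mice, edgeR adjusted p = 0.0145 and 0.00233). So did the chaperone Fkbp10 (0.88 ± 0.19 and 0.87 ± 0.16). Bmp1, which removes the carboxy propeptide, had 35.1, 50.5 and 49.9 CPM in TERT WT/WT ADR libraries, against 29.5, 26, 21.3 and 23.4 CPM after saline. Its groups did not overlap, and it rose by 0.85 ± 0.14 log2 units (adjusted p = 0.00231). P4ha1, a subunit of prolyl hydroxylase, fell by 0.67 ± 0.11 log2 units in the wild type. In TERT KO/KO mice the enhancers of the carboxy propeptide cleavage differed in direction, Pcolce rising by 0.65 ± 0.16 and Pcolce2 falling by 1.56 ± 0.33 log2 units. In i-TERTci mice 0 of 26 were called by edgeR. At an unadjusted p under 0.05, 7 were higher and 1 lower, against 3972 of all 17745 genes in either direction. Bmp1 was at 81.1, 37 and 60 CPM, against 21.1, 25.5, 28.5 and 27.8 CPM in actin-rtTA+ libraries.

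Of 45 other interstitial matrix genes, 5 rose and 3 fell after ADR with TERT knocked out, and 11 rose and 9 fell in the wild type, where 15.2% of all genes rose and 12.0% fell, with median log2 fold changes of 0.12 in TERT KO/KO and 0.29 in TERT WT/WT mice. Spp1 (osteopontin) had 6027 and 10868 CPM in TERT KO/KO ADR libraries, against 1099 to 1370 CPM after saline, and 3430, 18356 and 14254 CPM in TERT WT/WT ADR libraries, against 1089 to 1251 CPM after saline. It rose by 2.78 ± 0.49 and 3.35 ± 0.41 log2 units (edgeR adjusted p = 0.0108 in TERT KO/KO and 9.30e-04 in wild-type mice). Mfap2, a microfibril glycoprotein, rose in both as well (0.93 ± 0.22 and 1.14 ± 0.18). Efemp2, a fibulin that brings lysyl oxidase to elastin, rose in TERT WT/WT mice (1.08 ± 0.16), and Ogn (osteoglycin) fell there by 0.95 ± 0.15 log2 units. Ccn1, a matricellular protein, had 91.6 and 193 CPM in TERT KO/KO ADR libraries, against 12.6, 11.5 and 10.4 CPM after saline (3.63 ± 0.53, adjusted p = 0.00605), and Ccn2, its relative in fibrosis, had 253 and 229 CPM, against 61.9, 45.6 and 44.9 CPM (2.25 ± 0.42, adjusted p = 0.0152). Ccn2 had 47.8, 69.2 and 189 CPM in TERT WT/WT ADR libraries. Its TERT WT/WT saline values and the TERT WT/WT values of Ccn1 are not given here. The rises of Ccn1 and Ccn2 are thus not shown to be particular to the knockout. For the ADR effect of TERT KO/KO mice less that of the wild type, Aspn had the smallest p of this list (0.91 ± 0.29 log2 units, edgeR adjusted p = 0.322). Ccn2 came next (1.63 ± 0.55, adjusted p = 0.338), and neither was called. After ADR, Aspn had 5.32 and 4.08 CPM in TERT KO/KO libraries, against 2.79, 2.11 and 2.22 CPM in TERT WT/WT libraries (0.99 ± 0.22, edgeR adjusted p = 0.191). In i-TERTci mice 0 of 43 were called by edgeR. At an unadjusted p under 0.05, 18 were higher and 1 lower, against 3972 of all 17745 genes in either direction. Mfap2 was at 23.7, 4.94 and 19.4 CPM, against 2.09, 3.62, 3.5 and 3.4 CPM in actin-rtTA+ libraries.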

How the data were processed

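Whole-kidney RNA of 20 mice was read from the deposited counts, whole numbers per gene that the authors did not normalize. Per the study's methods and the submitters' processing notes, reads were checked with FastQC, trimmed with Trimmomatic and aligned with STAR to mm10, and the authors tested with DESeq2. The counting tool and strand setting are not given in the sources used here. Totals ran from 39323498 to 48399322 counts per library, and this depth limits only the lowest members. Of 55471 identifiers, 55230 matched GENCODE M21 without regard to version, and all 42 members matched.

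Groups came from the labels. Each experiment was fitted with edgeR 4.0.16 (R 4.3.3, limma 3.58.1) with filterByExpr (minimum count 10), TMM factors, 1 coefficient per group and the robust quasi-likelihood F test. Adjusted p-values are Benjamini-Hochberg values over all genes tested. The i-TERTci experiment used 7 libraries, the ADR experiment 12, and the comparison of both 19. Intervals are 95%. Scripts were tested on simulated data. Alternatives were RLE factors, other filters (none, or a mean of at least 1 CPM), DESeq2 1.42.0, edgeR's newer dispersion setting, a replicate block, other sets of libraries and leaving out each library.

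The members, the other gene lists and the marker lists were chosen with earlier results of these data known. All members are named. Values in every mouse are given for the 2 members of each role with the smallest p in i-TERTci mice and the 2 with the smallest p in TERT WT/WT mice given ADR, those called against the majority, and the 3 with the smallest p in each test of a genotype difference after ADR, of the difference of ADR effects or of the i-TERTci minus the ADR effect. Levels per kilobase use the exon length of GENCODE M21. Promoters are from RefSeq, build GRCm38.p6.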

Additional observations from a re-analysis of the deposited data

Results flagged for a closer look

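In 3 of the 84 combinations of a member and a group of 4 mice, 1 mouse stood apart from the other 3 by Dixon's criterion, which chance meets in about 1 of 20 groups. Ltbp4, a binding protein of latent TGF-beta, had 86.1 CPM in actin-rtTA+ replicate 1, against 115 to 116 CPM in the other actin-rtTA+ libraries. Col12a1, a collagen on the surface of fibrils, had 11.5 CPM in TERT WT/WT saline replicate 4, against 9.55 to 9.88 CPM. Thbs2, a matricellular glycoprotein, had 5.08 CPM in TERT WT/WT saline replicate 1, against 3.78 to 4 CPM.

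TERT KO/KO ADR replicate 2, the library rich in hepatocyte transcripts that entered no group mean, lay below every other library of the ADR experiment in 34 of the 42 members, as in 75.2% of all 19023 genes tested, so that this count says nothing particular of the members. In plain CPM, 7 members lay above the highest TERT KO/KO saline library. Fn1, which codes for fibronectin, had 3695 CPM, against at most 89.1 CPM after saline. Col18a1, a collagen of basement membranes, had 1196 CPM, against at most 260 CPM. Dcn had 83 CPM, against at most 60.3 CPM, and Tgfbi 33.4 CPM, against at most 6.3 CPM. Lum had 8.56 CPM, against at most 4.28 CPM, Postn 6.82 CPM, against at most 4.59 CPM, and Col5a3 4.18 CPM, against at most 3.51 CPM.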

How the results depend on the processing

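Across the alternatives, 254 counts of members called stayed within 1.5 times the value reported and 26 did not, and 136 medians over the members moved by less than the SD between mice while 4 moved by more. In i-TERTci against actin-rtTA+ mice edgeR called 0 members higher, against 2 with no filter (Lum and Mfap4), 33 by DESeq2, 34 with 19 libraries in 1 fit, and 0 to 35 on leaving out each library, 35 being without i-TERTci replicate 2. For ADR against saline in TERT WT/WT mice (26 higher, 2 lower), keeping TERT KO/KO ADR replicate 2 gave 5 higher and 1 lower, and leaving out each library gave 19 to 31 higher and 2 to 3 lower. All genes called numbered 5164 in the main fit, 894 with that replicate kept and 1708 to 7810 on leaving out each library. For TERT KO/KO mice (15 higher, 1 lower), keeping replicate 2 gave 1 higher and 0 lower. No filter, DESeq2 and a fit of the compared groups alone gave 16, 19 and 17 higher, and each gave 2 lower. They called 1075, 2196 and 1710 of all genes in either direction, against 1001 in the main fit. Leaving out each library gave 2 to 23 higher and 0 to 2 lower, with 2 higher without TERT KO/KO ADR replicate 3, 4, 5 and 3 higher without saline replicates 1, 2 and 3, and 23 higher and 2 lower without TERT WT/WT ADR replicate 1. All genes called in these fits numbered 303, then 217, 213 and 177, and 3393, against 1001 in the main fit. The count of 1 lower went to 0 without any one of the 5 TERT KO/KO libraries. Without TERT WT/WT ADR replicate 1, 2 members (Col18a1 and Loxl1) were called lower in TERT KO/KO than in TERT WT/WT mice after ADR (0 to 2 over the libraries left out). That fit called 782 of all genes, against 14 in the main fit. The i-TERTci effect exceeded the ADR effect for 1 member by DESeq2 (Ltbp4), 2 without i-TERTci replicate 2 and 1 without TERT WT/WT ADR replicate 1 (0 to 2). All genes called in these fits numbered 60, 35 and 34. The median log2 fold change after ADR was 1.09 in TERT WT/WT mice without ADR replicate 1 and 0.41 in TERT KO/KO mice without ADR replicate 3. Between genotypes after ADR it was -0.41 without that library and -0.39 with replicate 2 kept. With replicate 2 kept, the log2 fold change of Col18a1 between genotypes after ADR was 1.23 and the difference of ADR effects for Fbln1 was -0.12, both of opposite sign. The causes were not tested. With a replicate block, 0 members were called in i-TERTci mice, 14 higher and 1 lower in TERT KO/KO mice and 26 higher and 2 lower in TERT WT/WT mice. All genes called with this block numbered 1, 735 and 3612 in the same order. Same-numbered mice correlated at -0.45 to 0.48 in the ADR experiment and -0.11 to 0.09 in the i-TERTci experiment. Different-numbered mice correlated at -0.48 to 0.4 and -0.2 to 0.21. These are correlations of deviations from group means, which mirror each other in the 2 TERT KO/KO ADR libraries. They therefore cannot settle whether the numbers carry a pairing, and the main fits treated them as names only. Depth limits the lowest members, and groups of 2 to 4 mice limit the rest.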
